A study of Mus musculus with 12 samples.

Results

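The apolipoprotein genes Apoa1, Apoa2, Apoa4, Apoa5, Apob, Apoc1, Apoc2, Apoc3, Apoe and Apoh were taken from the deposited table by gene symbol. All 10 were found among the 47069 genes of the table. All 10 also passed the filter of the tests, a mean of at least 0.1 FPKM (fragments per kilobase of transcript, scaled to the mapped reads) over the 12 libraries, which left 17386 genes. The study removed Cdk1, a kinase that drives cells into mitosis, from mouse liver and measured polyA RNA at postnatal day 14 (P14), both in isolated hepatocytes and in the whole liver. Cdk1 Liv-/- mice carried Cdk1 flox/flox together with Albumin-Cre, a Cre recombinase under the albumin promoter, which is active in hepatocytes. WT mice were labelled as wild type, and the labels do not state whether they carried Cre or the floxed allele. Each genotype had 3 libraries of isolated hepatocytes and 3 of whole liver, made with a stranded kit and read from a single end. The labels number the libraries 1 to 3 and do not state that they came from separate animals, so p-values measure the spread between these libraries, which may be technical. The methods of the study speak of at least 3 biological replicates. The spacing of the lowest FPKM values gave a rough depth of 34.7 to 49.8 reads per FPKM and kilobase of transcript, with 31.2% to 41.5% of the values used within 0.05 reads of a whole number. By this estimate Apoa4, the least abundant of the 10 by the mean of each group, rested on about 1531 to 27860 reads per library.

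Apolipoproteins are the protein part of lipoproteins, the particles that carry cholesterol and triglycerides in blood, and hepatocytes are a main source of them. Apoa1 and Apoa2 form high-density lipoprotein (HDL), Apob is the backbone of very-low-density and low-density lipoprotein, and Apoe binds the receptors that clear remnant particles. Apoc2 is the cofactor of lipoprotein lipase, Apoc3 slows triglyceride clearance and Apoa5 promotes it, while Apoc1 hinders particle uptake, Apoa4 is best known from the intestine and Apoh is a phospholipid-binding plasma protein.

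Cdk1 (ENSMUSG00000019942) was at 27.9, 20.4 and 28.2 FPKM in WT hepatocyte replicates 1 to 3 and at 9.68, 11.8 and 6.87 FPKM in Cdk1 Liv-/- hepatocytes. Whole liver libraries held 25.3, 22.7 and 21.5 FPKM in WT and 11.7, 12.1 and 14.2 FPKM in Cdk1 Liv-/-. Every Cdk1 Liv-/- library lay below every WT library of its compartment, so no library went against its genotype label. The log2 difference of FPKM + 0.5 was -1.40 (SE 0.22) in hepatocytes and -0.85 (SE 0.10) in whole liver, with limma adjusted p of 0.0148 and 0.00353. FPKM per gene do not show the deleted exons apart from the rest of the transcript.

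A few libraries stood apart. Xist, the RNA of the inactive X chromosome, was at 158 FPKM in Cdk1 Liv-/- whole liver replicate 3 and at 0.14 FPKM or less in every other library. Of genes on the Y chromosome, Uty, Kdm5d, Ddx3y and Eif2s3y were listed at 0 in that library, while their sum was 48.4 to 62.1 FPKM in the others. This is the pattern of a female library, whereas the methods of the study speak of male mice alone, so this library differed from the stated design, and the reason was not tested. WT hepatocyte replicate 3 was the highest of its group in markers of other liver cells. The 12 sinusoidal endothelial markers summed to 178, 123 and 328 FPKM in WT hepatocyte replicates 1 to 3, and the 12 Kupffer cell and macrophage markers to 385, 209 and 705 FPKM. Cdk1 Liv-/- replicate 2 was the lowest of its group in summed apolipoprotein FPKM in both compartments.

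In WT hepatocytes the mean levels ran from 15994 FPKM (SD 1092, n = 3) for Apoe over 10304 (SD 1367) for Apoa1, 7051 (SD 387) for Apoc1 and 5138 (SD 592) for Apoa2 to 1767 (SD 31.4) for Apoh and 1137 (SD 117) for Apob. Below these came Apoc3 at 697 FPKM (SD 11.6), Apoc2 at 360.3 (SD 19.8), Apoa5 at 311 (SD 23.2) and Apoa4 at 36.8 (SD 17.2). FPKM are scaled by transcript length, so these levels can be set side by side. Neighbours in this order did not overlap between their 3 libraries in WT hepatocytes, and the order of the means was the same in whole liver of both genotypes. In Cdk1 Liv-/- hepatocytes Apoc1 (6115 to 8129 FPKM) stood above Apoa1 (3813 to 5429 FPKM). The ranges of Apoa1 and Apoa2, those of Apoc3, Apob and Apoh, and those of Apoa5 and Apoc2 overlapped in that group.

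The 10 genes together held 6.17%, 6.50% and 6.29% of the summed FPKM of WT hepatocyte replicates 1 to 3 and 5.44%, 4.33% and 5.34% in Cdk1 Liv-/- hepatocytes. In whole liver they held 6.64%, 6.78% and 6.34% in WT and 5.61%, 4.82% and 5.31% in Cdk1 Liv-/-. The share was lower in every Cdk1 Liv-/- library than in any WT library, and lowest in replicate 2 of both compartments. In hepatocytes the mean sum was 42796 FPKM (SD 2001, n = 3) in WT and 33733 (SD 5082) in Cdk1 Liv-/-, a difference of -9063 FPKM or -21.2%. For whole liver the mean sum was 45765 FPKM (SD 1641) in WT and 35587 (SD 2703) in Cdk1 Liv-/-, a difference of -10178 FPKM or -22.2%, and of -15318 FPKM with size factors. Most of the sum lay in Apoe, Apoa1, Apoc1 and Apoa2, so it says little of the other 6.

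**Figure D1:**
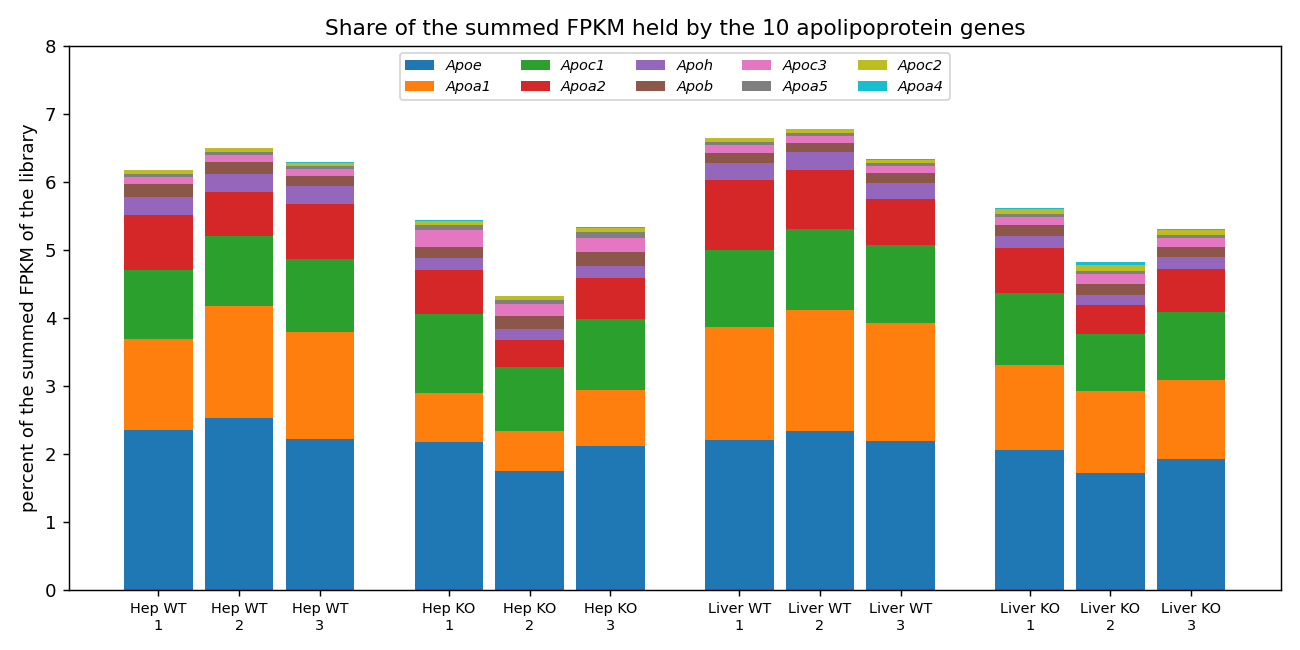
Percent of the summed FPKM of each library held by the 10 apolipoprotein genes, as 1 stacked bar for each of the 12 libraries (Hep, isolated hepatocytes; KO, Cdk1 Liv-/-), with 1 colour for each gene and an axis that starts at 0. WT libraries reach 6.17% to 6.78% and Cdk1 Liv-/- libraries 4.33% to 5.61%, and Apoe takes the largest part of every bar, followed by Apoa1 except in Cdk1 Liv-/- hepatocytes, where Apoc1 comes next.

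**Figure D2:**
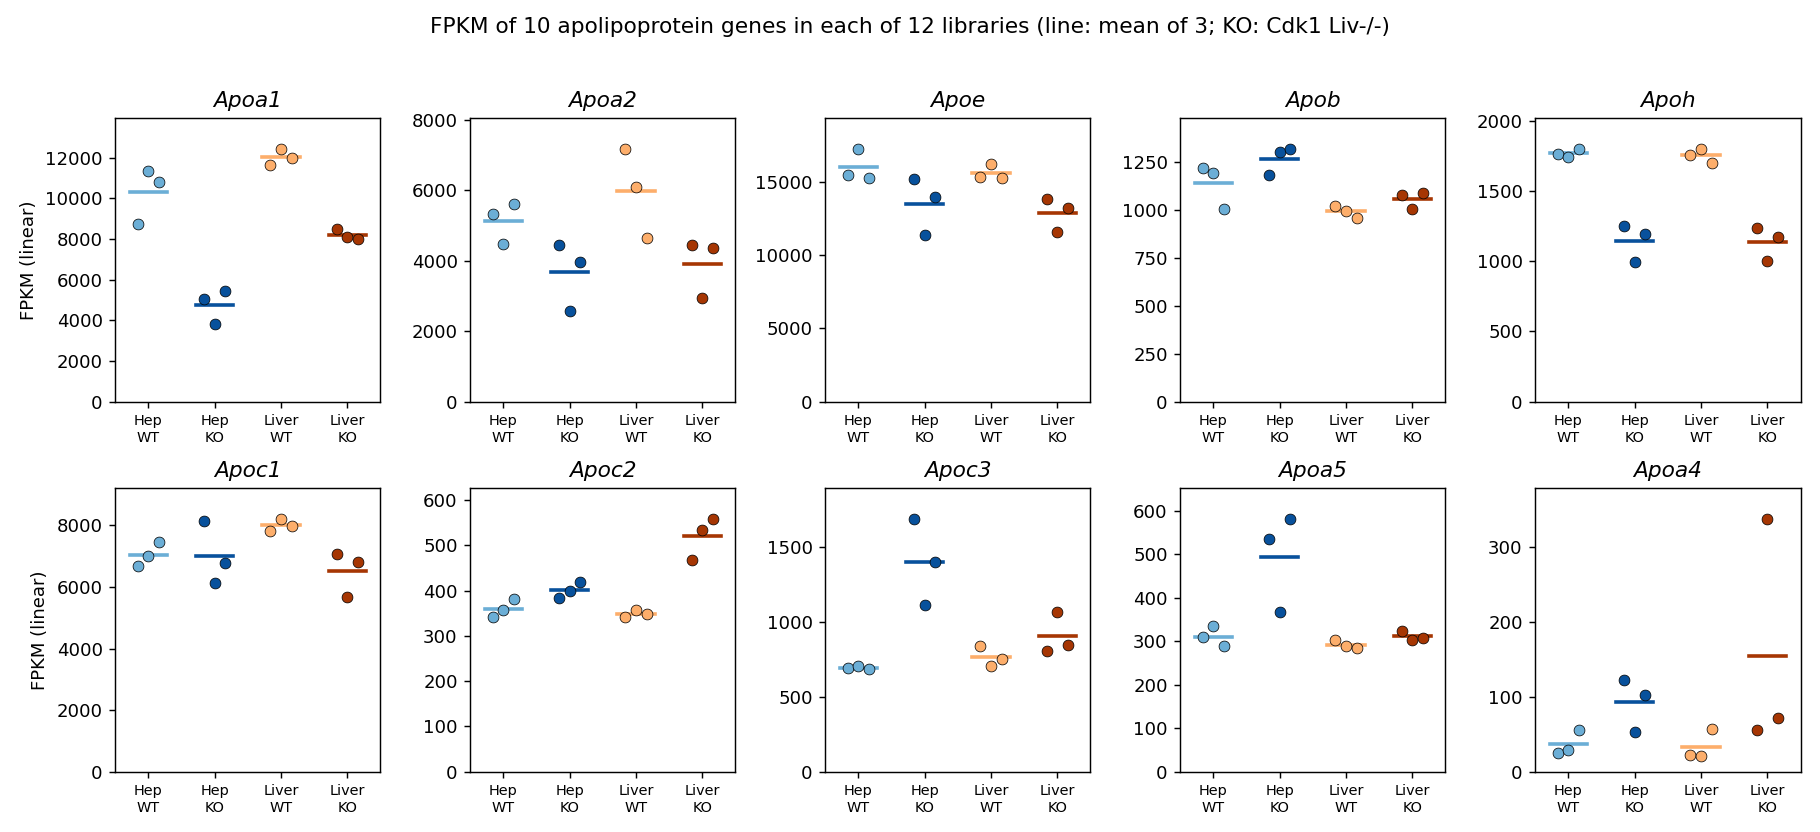
FPKM of each apolipoprotein gene on a linear axis that starts at 0, with 1 panel for each gene, 1 point for each library and a line at the mean of 3 (Hep, isolated hepatocytes; KO, Cdk1 Liv-/-). Apoa1 and Apoh are lower in all Cdk1 Liv-/- libraries of both compartments, Apoc3 is highest in Cdk1 Liv-/- hepatocytes (1114 to 1692 FPKM), Apoc2 in Cdk1 Liv-/- whole liver (468 to 558 FPKM), and 1 library of Cdk1 Liv-/- whole liver has an Apoa4 level of 338 FPKM.

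Of the 10 genes, 7 lie in 2 clusters (GRCm38, the build named mm10 in the submitters' processing notes). On chromosome 9 these are Apoa1 (ENSMUSG00000032083, chr9:46228580-46230466, plus strand), Apoc3 (ENSMUSG00000032081, chr9:46232933-46235636, minus strand), Apoa4 (ENSMUSG00000032080, chr9:46240696-46243459, plus strand) and Apoa5 (ENSMUSG00000032079, chr9:46268633-46271919, plus strand). The gaps between them are 2466, 5059 and 25173 bases, and Zpr1 follows Apoa5 after 1144 bases. On chromosome 7, all on the minus strand, are Apoc2 (ENSMUSG00000002992, chr7:19671579-19677941), Apoc1 (ENSMUSG00000040564, chr7:19689481-19692660) and Apoe (ENSMUSG00000002985, chr7:19696109-19699188). Apoc4 lies between Apoc2 and Apoc1, 141 bases from Apoc2, and 3448 bases part Apoc1 from Apoe. The others lie alone, Apoa2 (ENSMUSG00000005681) at chr1:171225054-171226379, Apoh (ENSMUSG00000000049) at chr11:108343354-108414396 and Apob (ENSMUSG00000020609) at chr12:7977648-8016835, all on the plus strand. Some annotated genes overlap them. The antisense gene Gm10680 overlaps the end of Apoa4, Gm47544 overlaps Apoa5 on the other strand, Gm44805 overlaps Apoc2 on the same strand, and Prkca overlaps the start of Apoh. Whether the counting used strand is not given in the sources used here, so reads of a gene and its overlapping partner cannot be told apart.

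Since genes of the chromosome 9 cluster moved in opposite directions, bases upstream of 3 of its starts are shown, from RefSeq (GRCm38.p6), in which 8 of the 10 genes had a promoter entry. Apoc1 and Apoc3 had none. The Apoa5 window was limited to the first 250 bases of its promoter entry. It ends short of the start of the gene at 46268633, so the bases between are not shown. The Apoa1 and Apoa4 windows end just before the annotated start of the gene, which falls within the first 250 bases of their entries. The rest of those 250 bases was neither shown nor searched. A script looked on both strands for TGNNCNTTG, a shortened form of the direct repeat read by HNF4A and related receptors, for AGGTCA, the nuclear receptor half-site, and for TATAAA, the TATA box, and matches are in capitals.
Apoa1, chr9:46228380-46228579, plus strand: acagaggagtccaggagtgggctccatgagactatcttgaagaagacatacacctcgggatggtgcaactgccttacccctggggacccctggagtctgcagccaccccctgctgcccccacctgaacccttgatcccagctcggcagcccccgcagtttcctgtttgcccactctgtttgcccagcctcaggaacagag
Apoa4, chr9:46240594-46240695, plus strand: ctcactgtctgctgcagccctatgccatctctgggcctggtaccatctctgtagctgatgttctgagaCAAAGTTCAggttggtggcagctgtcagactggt
Apoa5, chr9:46268358-46268607, plus strand: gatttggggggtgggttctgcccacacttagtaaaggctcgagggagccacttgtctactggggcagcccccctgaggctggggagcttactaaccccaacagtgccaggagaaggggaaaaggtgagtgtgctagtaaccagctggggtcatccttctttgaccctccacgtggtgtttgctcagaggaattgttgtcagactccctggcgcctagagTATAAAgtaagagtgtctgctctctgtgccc
The Apoa4 window of 102 bases held 1 match of TGNNCNTTG and none of AGGTCA or TATAAA. In a window of that length, 5.13%, 6.04% and 5.62% of 32851 mouse promoters held a match, in that order. The windows of these promoters end at base 250 of their entries, whereas those of Apoa4 and Apoa1 are the first bases of theirs. For Apoa4 and Apoa1 the shares thus come from bases farther along the entry and are no matched background. The Apoa5 window of 250 bases held 1 match of TATAAA (12.4% of promoters) and none of TGNNCNTTG (12.8%) or AGGTCA (14%). The Apoa1 window of 200 bases held none of TGNNCNTTG (10.4%), AGGTCA (11.4%) or TATAAA (9.96%), and the bases after it were not searched. A match describes letters and does not show a bound factor.

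In isolated hepatocytes, 5 of the 10 genes passed the genotype test (limma, adjusted p of at most 0.1). Apoc3, Apoa5 and Apoa4 rose and Apoa1 and Apoh fell. Among all 17386 genes 18.7% passed, 12.1% as higher and 6.61% as lower in Cdk1 Liv-/-, beside 3 of 10 higher and 2 of 10 lower here. Apoa1 and Apoa4 also had a log2 difference of at least 1 in size (2 of 10, against 6.37% of all genes). The libraries of the genotypes did not overlap in 7 of the 10 genes, against 34% of all genes. The median log2 difference was 0.07 over the 10 genes and 0.05 over all genes. The study reported far fewer changed genes in hepatocytes than were called here. These hepatocyte calls therefore do not reproduce those of the study, and the reason was not tested. In these bulk samples, fewer cells of a type and less RNA per cell cannot be told apart.

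In whole liver, 4 of the 10 genes passed (limma), and this share is near the 45.6% of all genes that passed and is no result about the apolipoproteins. Apoc2 rose, as 38% of all genes did, and Apoa1, Apoa2 and Apoh fell, as 7.53% of all genes did. The genotypes did not overlap in 7 of the 10 genes, against 52.1% of all genes. None of the 10 passed limma with a log2 difference of at least 1 in size, as 5.59% of all genes did. At an unadjusted p under 0.05 were 4 of 10 with limma and 5 of 10 with a plain two-sample test. The share of all genes at that p is not given here, so these counts are no result about the apolipoproteins. That two-sample test with q-values called all 10, and 11389 of all 17386 genes as well. The methods of the study name this kind of test, but the study reported far fewer changed genes in whole liver. These calls therefore do not reproduce those of the study, and the reason was not tested. The median log2 difference was -0.09 over the 10 genes and 0.18 over all genes.

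The libraries were not scaled against each other in these values. Median-ratio size factors moved the median of all genes by -0.05 in hepatocytes and by -0.17 in whole liver. They moved the share of calls that were higher from 64.7% to 54.7% in hepatocytes and from 83.5% to 52.2% in whole liver. With that scaling, Apoa1, Apoc3 and Apoh kept their calls in hepatocytes at log2 differences of -1.20, 0.91 and -0.71, and Apoa4 (1.26) and Apoa5 (0.57) did not. In whole liver, 6 of the 10 genes passed limma with size factors, as did 5951 of all 17386 genes. These were Apoc2 at 0.35, Apoa1 at -0.77, Apoa2 at -0.84 and Apoh at -0.85, together with Apoc1 at -0.52 and Apoe at -0.50. Apoa5 (-0.13) and Apob (-0.13) changed sign in whole liver under size factors, so no direction is given for them there.

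Of the HDL proteins, Apoa1 was at 8752, 11332 and 10829 FPKM in WT hepatocytes and at 5026, 3813 and 5429 FPKM in Cdk1 Liv-/- hepatocytes. In whole liver it was at 11632, 12451 and 11999 FPKM in WT and at 8481, 8118 and 8006 FPKM in Cdk1 Liv-/-. All Cdk1 Liv-/- libraries were below all WT libraries in both compartments, and the hepatocyte levels of Cdk1 Liv-/- mice were the lowest of the 4 groups. The log2 difference was -1.12 (SE 0.22, limma, adjusted p = 0.0293) in hepatocytes and -0.55 (SE 0.12, limma, adjusted p = 0.0205) in whole liver, a fold of 0.459 and 0.682. Both calls were kept without any 1 library. Without the filter on low values both were lost, with limma adjusted p of 0.12 in hepatocytes (range over the alternatives 0.00898 to 0.127) and 0.501 in whole liver (range 0.0023 to 0.501).

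Apoa2, the other main HDL protein, was at 5316, 4478 and 5621 FPKM in WT and at 4462, 2568 and 3976 FPKM in Cdk1 Liv-/- hepatocytes. Its whole liver values were 7186, 6099.8 and 4644 FPKM in WT and 4437, 2934 and 4355 FPKM in Cdk1 Liv-/-. The groups did not overlap in either compartment, although WT replicate 2 and Cdk1 Liv-/- replicate 1 of the hepatocytes nearly met, and WT whole liver was spread widely. Between genotypes the log2 difference was -0.52 (SE 0.25, limma, adjusted p = 0.227) in hepatocytes, which did not pass, and -0.61 (SE 0.24, limma, adjusted p = 0.0958) in whole liver, which did. The whole liver call was lost without WT replicate 1 (-0.47) or 2 (-0.59) and without Cdk1 Liv-/- replicate 1 (-0.72), 2 (-0.42) or 3 (-0.71), with limma adjusted p of 0.11 to 0.258 (range over the alternatives 0.0509 to 0.402).

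Apoe, the receptor ligand, was the most abundant of the 10 genes, with 15474, 17249 and 15259 FPKM in WT and 15184, 11375 and 13948 FPKM in Cdk1 Liv-/- hepatocytes. The whole liver libraries held 15286, 16212 and 15213 FPKM in WT and 13811, 11578 and 13213 FPKM in Cdk1 Liv-/-. All Cdk1 Liv-/- values were below all WT values, by a narrow margin in hepatocytes, and replicate 2 was lowest in both compartments. The log2 difference was -0.25 (SE 0.24, limma, adjusted p = 0.533) in hepatocytes and -0.28 (SE 0.15, limma, adjusted p = 0.198) in whole liver, neither past the threshold.

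Apob, the backbone of very-low-density lipoprotein, was at 1217, 1190.4 and 1003 FPKM in WT and at 1179, 1298 and 1317 FPKM in Cdk1 Liv-/- hepatocytes. In whole liver it was at 1020.3, 993 and 958 FPKM in WT and at 1074, 1004 and 1085 FPKM in Cdk1 Liv-/-. The genotypes overlapped in both compartments. Between genotypes the log2 difference was 0.16 (SE 0.12, limma, adjusted p = 0.43) in hepatocytes and 0.09 (SE 0.07, limma, adjusted p = 0.342) in whole liver, where its sign turned under size factors. The 95% interval was -0.13 to 0.45 in hepatocytes and -0.08 to 0.26 in whole liver.

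Apoh, the phospholipid-binding protein, was at 1760.3, 1740.0 and 1802 FPKM in WT and at 1247, 995 and 1192 FPKM in Cdk1 Liv-/- hepatocytes. Its whole liver values were 1758, 1799 and 1699.7 FPKM in WT and 1237, 1002 and 1172 FPKM in Cdk1 Liv-/-. Every Cdk1 Liv-/- library was below every WT library, and the levels of both compartments were alike within each genotype. The log2 difference was -0.63 (SE 0.12, limma, adjusted p = 0.0271) in hepatocytes and -0.63 (SE 0.10, limma, adjusted p = 0.00812) in whole liver, a fold of 0.645 and 0.647. Both calls were kept without any 1 library and under all 3 other scalings.

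Apoc1, which hinders uptake of particles, was at 6679.9, 7021 and 7451 FPKM in WT and at 8129, 6115 and 6774 FPKM in Cdk1 Liv-/- hepatocytes. The whole liver libraries held 7811, 8217 and 7993 FPKM in WT and 7075, 5685 and 6807 FPKM in Cdk1 Liv-/-. The genotypes overlapped in hepatocytes and did not in whole liver, where replicate 2 of Cdk1 Liv-/- was lowest. Between genotypes the log2 difference was -0.02 (SE 0.19, limma, adjusted p = 0.963) in hepatocytes, where its sign turned when all libraries were given the same sum, and -0.30 (SE 0.13, limma, adjusted p = 0.13) in whole liver. Without Cdk1 Liv-/- whole liver replicate 2 the whole liver difference was -0.21 and passed (limma, adjusted p = 0.0851, range over the alternatives 0.0306 to 0.841).

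Apoc2, the lipoprotein lipase cofactor, was at 342, 357 and 381 FPKM in WT and at 384, 398 and 419 FPKM in Cdk1 Liv-/- hepatocytes. In whole liver it was at 341, 357 and 348 FPKM in WT and at 468, 534 and 558 FPKM in Cdk1 Liv-/-. The hepatocyte groups lay next to each other without overlap, while the Cdk1 Liv-/- whole liver libraries were above all 9 others. The log2 difference was 0.15 (SE 0.08, limma, adjusted p = 0.268) in hepatocytes, which did not pass, and 0.57 (SE 0.08, limma, adjusted p = 0.00587) in whole liver, a fold of 1.49. The whole liver call was kept under all 15 alternatives of scaling, filter, test and library (adjusted p of 0.00378 to 0.0324 by limma and the two-sample test).

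Apoc3, the inhibitor of triglyceride clearance, was at 693, 710.0 and 688 FPKM in WT and at 1692, 1114 and 1403 FPKM in Cdk1 Liv-/- hepatocytes. Its whole liver values were 841, 706 and 755 FPKM in WT and 806, 1068 and 849 FPKM in Cdk1 Liv-/-. The WT hepatocyte libraries lay close together, and all 3 Cdk1 Liv-/- hepatocyte libraries were above every other library of the 12. In whole liver the genotypes overlapped. Between genotypes the log2 difference was 0.99 (SE 0.16, limma, adjusted p = 0.0166) in hepatocytes, a fold of 1.98, and 0.23 (SE 0.13, limma, adjusted p = 0.211) in whole liver, where size factors took it to 0.013. The hepatocyte call was kept under all 15 alternatives of scaling, filter, test and library (adjusted p of 0.00846 to 0.0948 by limma and the two-sample test), and its size fell just short of an added threshold of 1 log2.

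Apoa5, which promotes triglyceride clearance, was at 309, 334 and 288 FPKM in WT and at 535, 366 and 582 FPKM in Cdk1 Liv-/- hepatocytes. The whole liver libraries held 302, 288 and 284 FPKM in WT and 324, 303 and 308 FPKM in Cdk1 Liv-/-. Replicates 1 and 3 of the Cdk1 Liv-/- hepatocytes were high and replicate 2 lay only just above WT. Whole liver libraries of both genotypes were close together, just without overlap. The log2 difference was 0.64 (SE 0.18, limma, adjusted p = 0.0781) in hepatocytes and 0.10 (SE 0.06, limma, adjusted p = 0.22) in whole liver, where its sign turned under size factors. The hepatocyte call was lost without WT replicate 1 (0.64), 2 (0.70) or 3 (0.59) and without Cdk1 Liv-/- replicate 1 (0.57) or 3 (0.51), with limma adjusted p of 0.129 to 0.188 (range over the alternatives 0.0156 to 0.312).

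Apoa4, the intestinal apolipoprotein, was at 24.9, 28.9 and 56.5 FPKM in WT and at 123, 52.5 and 103 FPKM in Cdk1 Liv-/- hepatocytes. In whole liver it was at 22.9, 21.1 and 57.3 FPKM in WT and at 55.7, 338 and 71.8 FPKM in Cdk1 Liv-/-. Replicate 3 was the high one among the WT libraries of both compartments and overlapped the lowest Cdk1 Liv-/- library, and replicate 2 of Cdk1 Liv-/- whole liver was far above the rest. Between genotypes the log2 difference was 1.33 (SE 0.42, limma, adjusted p = 0.0972) in hepatocytes and 1.85 (SE 0.77, limma, adjusted p = 0.112) in whole liver. The hepatocyte call was lost without WT replicate 1 (1.10) or 2 (1.21) and without Cdk1 Liv-/- replicate 1 (1.08) or 3 (1.21), with limma adjusted p of 0.209 to 0.236 (range over the alternatives 0.0652 to 0.395). In whole liver, leaving out Cdk1 Liv-/- replicate 1 gave 2.35 and passed (limma, adjusted p = 0.0863, range 0.0645 to 0.387), and leaving out Cdk1 Liv-/- replicate 2 gave 1.05, which did not. Gm10680, the antisense gene at the end of Apoa4, was at 5.67, 5.07 and 18.5 FPKM in WT and 39.5, 8.71 and 26.1 FPKM in Cdk1 Liv-/- hepatocytes. Its whole liver values were 1.47, 3.28 and 14.02 FPKM in WT and 10.2, 92.8 and 24.0 FPKM in Cdk1 Liv-/-, high in the libraries where Apoa4 was high.

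Among 8 enterocyte markers, Alpi, Sis, Cdx1 and Cdx2 were listed at 0 in all 12 libraries. The 8 summed to 130, 140.4 and 122 FPKM in WT and 201, 159.5 and 153 FPKM in Cdk1 Liv-/- hepatocytes, and to 142, 165 and 129 FPKM in WT and 213, 165 and 229 FPKM in Cdk1 Liv-/- whole liver. Fabp2, the most abundant, was at 88.1, 83.5 and 69.25 FPKM in WT and 149, 122 and 108 FPKM in Cdk1 Liv-/- hepatocytes. It made up most of every sum, so the sums say little of the other markers. Of the 3 markers tested, 2 rose in each compartment, where 12.1% of all genes rose in hepatocytes and 38% in whole liver. The library with the highest Apoa4 level had the lowest sum of its group in Cdk1 Liv-/- whole liver (replicate 2) and the highest in Cdk1 Liv-/- hepatocytes (replicate 1). The part of these genes in the Apoa4 levels was not tested.

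**Figure D3:**
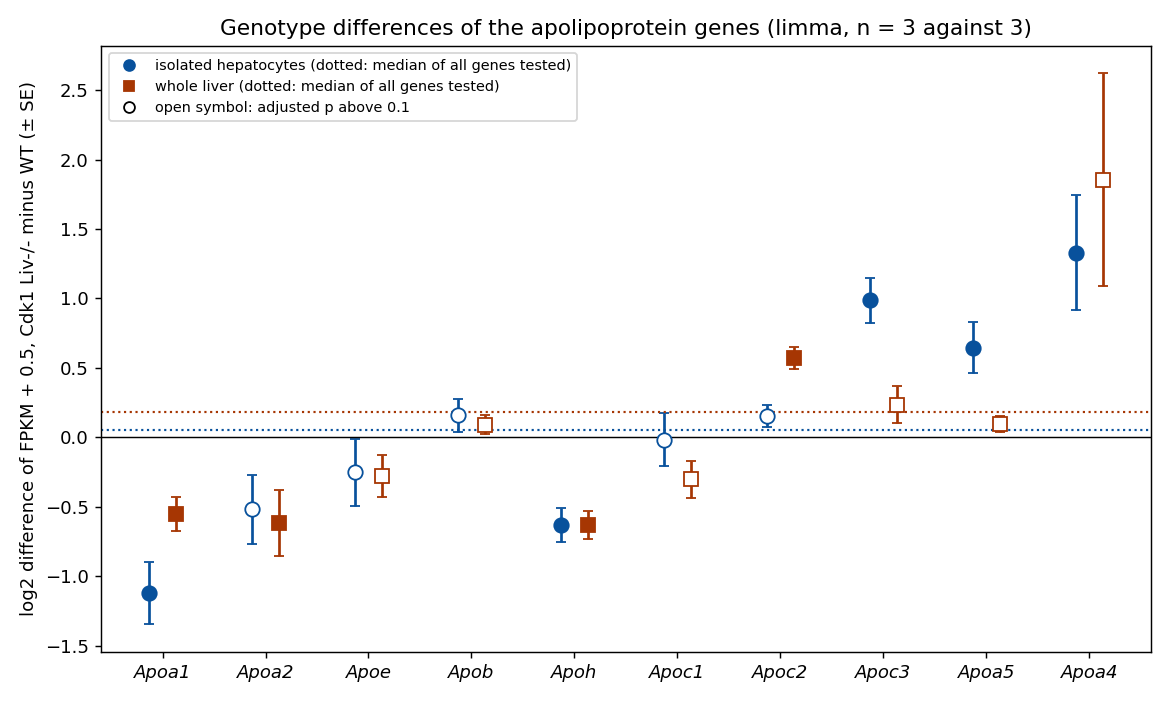
Log2 difference of FPKM + 0.5 between Cdk1 Liv-/- and WT for each apolipoprotein gene (points) with its standard error (bars), from limma with 3 libraries against 3, in isolated hepatocytes (circles) and whole liver (squares). Filled symbols passed an adjusted p of 0.1, and dotted lines mark the median of all genes tested (0.05 and 0.18). Apoa1 and Apoh are below 0 with filled symbols in both compartments, and the whole liver values of Apoa5 and Apob change sign under size factors.

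Whether the genotype difference itself differed between compartments was tested as an interaction over all 12 libraries. Of the 10 genes 2 passed limma, against 9.85% of all genes. The genotype difference of Apoc3 was higher in hepatocytes than in whole liver, by 0.75 log2 (SE 0.21, limma, adjusted p = 0.0805). That of Apoc2 was lower in hepatocytes, at -0.42 (SE 0.11, limma, adjusted p = 0.0708). Apoc3 was not called in whole liver alone, nor Apoc2 in hepatocytes alone. The median over all genes was -0.11, and size factors moved it by 0.12 and the share of higher calls from 23.9% to 52.6%. With size factors Apoc3 passed at 0.90 (limma, adjusted p = 0.077) and Apoc2 did not at -0.27 (limma, adjusted p = 0.202), where the ranges over the alternatives were 0.0398 to 0.236 and 0.0486 to 0.212.

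Both interaction calls depended on single libraries, and so did the number of calls among all genes. Of all genes 1712 passed in the main fit, against 78 to 2639 with 1 library left out. Apoc2 lost its call without WT hepatocyte replicate 3 (-0.38), Cdk1 Liv-/- hepatocyte replicate 1 (-0.39), WT whole liver replicate 1 (-0.40), 2 (-0.44) or 3 (-0.42), or Cdk1 Liv-/- whole liver replicate 2 (-0.40) or 3 (-0.37). Apoc3 lost its call without WT hepatocyte replicate 1 (0.75) or 3 (0.74), Cdk1 Liv-/- hepatocyte replicate 1 (0.61) or 3 (0.74), WT whole liver replicate 1 (0.69), 2 (0.81) or 3 (0.76), or Cdk1 Liv-/- whole liver replicate 1 (0.67) or 3 (0.71). With both libraries that stood apart left out, WT hepatocyte replicate 3 and Cdk1 Liv-/- whole liver replicate 3, none of the 10 passed, and the differences were -0.33 for Apoc2 and 0.70 for Apoc3. With 1 library left out, the difference ran from -0.49 to -0.37 for Apoc2 and from 0.61 to 0.91 for Apoc3. Apoa1 (-0.57, limma, adjusted p = 0.161) and Apoa5 (0.55, limma, adjusted p = 0.137) did not pass. Apoa1 did pass with the two-sample test with q-values. Apoa5 passed without Cdk1 Liv-/- hepatocyte replicate 2 (0.75, limma, adjusted p = 0.014, range over the alternatives 0.014 to 0.385). For Apoh the difference was -0.0040, with a sign that turned under size factors and a 95% interval of -0.34 to 0.33.

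WT hepatocytes and WT whole liver did not differ in any of the 10 genes by limma, and 1.52% of all genes passed. None was at an unadjusted p under 0.05 with limma, and 1 was with the two-sample test, which called none. The share of all genes at that unadjusted p is not given here. Without WT hepatocyte replicate 3, Apob passed at 0.28 (limma, adjusted p = 0.0608, range over the alternatives 0.0608 to 0.71). A p that misses the threshold does not show equal levels, and the widest 95% interval was that of Apoa4, from -0.97 to 1.34.

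Between Cdk1 Liv-/- hepatocytes and Cdk1 Liv-/- whole liver, 4 of the 10 genes passed limma, against 44.7% of all genes, 8.86% as higher and 35.9% as lower in hepatocytes, so the share is near that of all genes. Apoa5 (0.64) and Apoc3 (0.62) were higher and Apoa1 (-0.80) and Apoc2 (-0.37) lower in hepatocytes. The median over all genes was -0.19, and size factors moved it by 0.21 and the share of higher calls from 19.8% to 48.5%. With size factors Apoa5 (0.91) and Apoc3 (0.89) passed, joined by Apob (0.54), and Apoa1 (-0.53) and Apoc2 (-0.10) did not. The number of calls among the 10 genes fell furthest without Cdk1 Liv-/- whole liver replicate 3, while the differences of the 4 moved little. Without that library none of the 4 passed, at -0.82 for Apoa1, 0.63 for Apoa5, -0.32 for Apoc2 and 0.58 for Apoc3. Apoa1 also lost its call without Cdk1 Liv-/- whole liver replicate 1 (-0.78). Apoa5 lost it without Cdk1 Liv-/- hepatocyte replicate 1 (0.57) or 3 (0.51) or whole liver replicate 2 (0.62), and Apoc3 without hepatocyte replicate 1 (0.47) or 3 (0.61) or whole liver replicate 1 (0.54). Apob passed without Cdk1 Liv-/- hepatocyte replicate 1 (0.31). These comparisons share their libraries with the genotype comparisons.

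Within the chromosome 9 cluster, Apoc3 and Apoa1 can be compared inside each library, where any scaling drops out. The log2 ratio of Apoc3 to Apoa1 FPKM was -3.66, -4.00 and -3.98 in WT hepatocytes and -1.57, -1.78 and -1.95 in Cdk1 Liv-/- hepatocytes. In whole liver it was -3.79, -4.14 and -3.99 in WT and -3.40, -2.93 and -3.24 in Cdk1 Liv-/-. All Cdk1 Liv-/- ratios were above all WT ratios, with a mean difference of 2.11 in hepatocytes and 0.79 in whole liver. The ratio of Apoa5 to Apoa1 differed by 1.77 and 0.65 in the same order, again without overlap. On chromosome 7, the log2 ratio of Apoc2 to Apoc1 lay between -4.52 and -4.29 in all WT libraries. It was at -4.40, -3.94 and -4.02 in Cdk1 Liv-/- hepatocytes, which overlapped WT, and at -3.92, -3.41 and -3.61 in Cdk1 Liv-/- whole liver, which did not. A ratio shows unequal levels of its pair and not which gene moved.

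**Figure D4:**
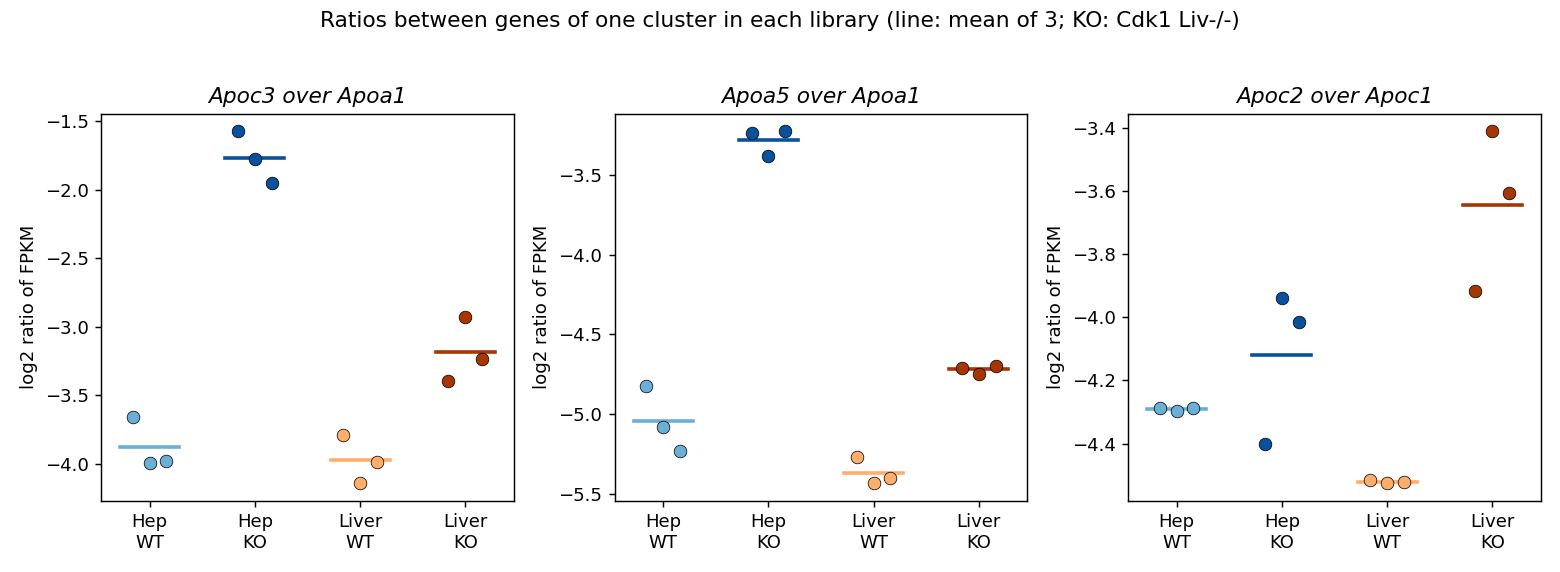
Log2 ratio of FPKM between genes of 1 cluster in each library (points) with the mean of 3 (lines), for Apoc3 over Apoa1, Apoa5 over Apoa1 and Apoc2 over Apoc1 (Hep, isolated hepatocytes; KO, Cdk1 Liv-/-; the axes do not start at 0). The Cdk1 Liv-/- hepatocytes stand highest in the first pair of genes, between -1.95 and -1.57, and Cdk1 Liv-/- whole liver in Apoc2 over Apoc1, between -3.92 and -3.41.

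Other genes of the chromosome 9 region were read from a list of 15 symbols that also holds the 4 apolipoproteins, with 10 other genes tested. Of these, 2 rose and none fell in hepatocytes (median 0.28), and 6 rose and none fell in whole liver (median 0.25), by limma. Of all genes 12.1% rose in hepatocytes (median 0.05) and 38% in whole liver (median 0.18), where size factors moved the share of higher calls from 83.5% to 52.2%. Zpr1, the zinc finger gene next to Apoa5, was at 17.7, 17.1 and 17.0 FPKM in WT and at 32.9, 31.4 and 32.4 FPKM in Cdk1 Liv-/- hepatocytes. The whole liver libraries held 18.1, 18.2 and 18.3 FPKM in WT and 19.4, 23.2 and 21.3 FPKM in Cdk1 Liv-/-. The replicates were tight, and Cdk1 Liv-/- hepatocytes stood well above the other groups. Zpr1 rose by 0.88 log2 in hepatocytes (SE 0.07, limma, adjusted p = 0.0019), and by 0.66 more there than in whole liver (SE 0.10, limma, adjusted p = 0.0213). It kept both calls under every alternative of scaling, filter, test and library. Bace1, another gene of this list, had a log2 difference of -0.02 in hepatocytes and -0.01 in whole liver. Both signs turned when single libraries were left out. In whole liver the Bace1 difference reached -0.22 over the alternatives, and 1 alternative gave a call. Of 12 other genes tested in the chromosome 7 region, 4 rose and none fell in hepatocytes (median 0.22), and 8 rose and none fell in whole liver (median 0.37). Apoc4, between Apoc2 and Apoc1, was at 1242, 1354 and 1082 FPKM in WT and at 1141, 1020.2 and 1025 FPKM in Cdk1 Liv-/- hepatocytes. These overlapped, and the log2 difference was -0.20 in hepatocytes and -0.22 in whole liver, neither past the limma threshold. In whole liver the Apoc4 difference reached -0.438 over the alternatives, and 1 alternative gave a call.

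Across the 12 libraries, the gene whose log2(FPKM + 0.5) followed each apolipoprotein most closely was sought among 12281 genes with a mean of at least 1 FPKM. The points share 4 groups, so these correlations describe group differences as well as replicates. Apoh was closest to Ces2a (r = 0.98), a carboxylesterase, which was at 79.4, 81.2 and 98.5 FPKM in WT and 49.9, 26.7 and 39.2 FPKM in Cdk1 Liv-/- hepatocytes. Apoa1 was closest to Gm5617 (r = 0.98), which lies at chr9:48495442-48495972, and Apoc2 to Mirg (r = 0.97), a noncoding RNA. Apoa5 was closest to Phf11c (r = 0.97), Apob to Reep3 (r = 0.96), Apoa4 to its antisense gene Gm10680 (r = 0.96), Apoc3 to the mitochondrial protease gene Lonp1 (r = 0.95), Apoe to Bckdha (r = 0.95), Apoa2 to Dusp23 (r = 0.93) and Apoc1 to Uqcr11 (r = 0.91). Among the apolipoproteins themselves, the highest values were those of Apoe with Apoh (r = 0.89) and Apoa5 with Apoc3 (r = 0.87), and the lowest that of Apoa1 with Apoc3 (r = -0.81), each with n = 12 libraries.

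The list of other apolipoprotein genes also holds the paraoxonase gene Pon1, and 18 of its genes were tested. Of these, 8 rose and 2 fell in hepatocytes (limma), against 12.1% and 6.61% of all genes. Pon1 was among those that fell, and the median log2 difference of the list was 0.32. In whole liver 6 rose and 2 fell, against 38% and 7.53% of all genes, with a median of 0.15. Saa1, a serum amyloid A protein that joins HDL in the acute phase, was at 6.69, 3.51 and 3.90 FPKM in WT and at 261, 219 and 432 FPKM in Cdk1 Liv-/- hepatocytes. In whole liver it was at 6.78, 8.02 and 8.07 FPKM in WT and at 139, 169 and 103 FPKM in Cdk1 Liv-/-. Each Cdk1 Liv-/- library was far above each WT library. Saa1 rose by 5.86 log2 in hepatocytes (SE 0.32, limma, adjusted p = 0.000786) and by 4.06 in whole liver (SE 0.19, limma, adjusted p = 0.000234), and Saa2, its close copy, by 6.33 and 4.32. Reads of such near-identical genes can be split between them by the counting, so each value is uncertain by itself.

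Lipoprotein assembly and secretion had 4 of 24 genes higher and 3 lower in hepatocytes (median 0.20) and 8 higher and 2 lower in whole liver (median 0.07). The whole liver count of higher genes was no more than that of all genes, of which 38% were higher and 7.53% lower, against 12.1% and 6.61% in hepatocytes. The carboxylesterase gene Ces3a rose 2.83-fold in hepatocytes (limma, adjusted p = 0.00608), and Ces1d, a lipase of the same family, fell by 0.65 (SE 0.10, limma, adjusted p = 0.0127). In whole liver the lipid droplet protein gene Plin2 rose by 1.13 (SE 0.12, limma, adjusted p = 0.00293), Apobec1, whose product edits Apob mRNA, rose by 0.95 (SE 0.17, limma, adjusted p = 0.011), and Dgat2, an enzyme of triglyceride synthesis, fell by 0.84 (SE 0.11, limma, adjusted p = 0.00432).

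HDL formation and remodelling had 1 of 10 genes higher and none lower in hepatocytes (median -0.25) and 4 higher and 3 lower in whole liver (median 0.18). For all genes the shares were 12.1% higher and 6.61% lower in hepatocytes and 38% higher and 7.53% lower in whole liver (median 0.18), so 4 of 10 higher is the background. The endothelial lipase gene Lipg was low, at 0.41, 0.38 and 0.20 FPKM in WT and at 1.52, 2.97 and 1.82 FPKM in Cdk1 Liv-/- hepatocytes, and its log2 difference on FPKM + 0.5, which understates low genes, was 1.62 (SE 0.24, limma, adjusted p = 0.0122). The sterol transporter genes Abcg5 and Abcg8 fell by 1.41 and 1.40 in whole liver (SE 0.21 and 0.19, limma, adjusted p = 0.00657 and 0.00529). Triglyceride lipolysis had none of 8 genes higher and 3 lower in hepatocytes (median -0.19), and 1 higher and 2 lower in whole liver (median -0.13), beside the same shares of all genes. Lpl, the lipoprotein lipase gene, was at 222, 201 and 227 FPKM in WT and at 143, 111 and 121 FPKM in Cdk1 Liv-/- hepatocytes. Its whole liver values were 198, 192 and 209 FPKM in WT and 99.1, 97.1 and 96.5 FPKM in Cdk1 Liv-/-. Neither compartment overlapped, and Lpl fell by 0.80 in hepatocytes (SE 0.11, limma, adjusted p = 0.0105) and by 1.03 in whole liver (SE 0.05, limma, adjusted p = 0.000286).

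Lipoprotein receptors and clearance had 3 of 14 genes higher and 1 lower in hepatocytes (median 0.12), where 12.1% of all genes were higher and 6.61% lower. It had 7 higher and none lower in whole liver (median 0.40), where 38% of all genes were higher and 7.53% lower. Sorl1, the gene of a sorting receptor with lipoprotein receptor domains, rose by 1.46 log2 in whole liver (SE 0.16, limma, adjusted p = 0.00297). Vldlr, the very-low-density lipoprotein receptor gene, rose by 1.15 in hepatocytes (SE 0.24, limma, adjusted p = 0.0355), a call lost without WT replicate 1 (1.06) or Cdk1 Liv-/- replicate 2 (1.06). Of 30 genes of transcription factors that act on apolipoprotein genes, 3 rose and none fell in hepatocytes (median 0.11), and 5 rose and 7 fell in whole liver (median -0.03), beside the same shares of all genes. In whole liver Ppara, a nuclear receptor of fatty acid metabolism, fell by 1.34 (SE 0.24, limma, adjusted p = 0.0113), Srebf1, of lipid synthesis, fell by 0.71 (SE 0.12, limma, adjusted p = 0.0108) and Onecut1 rose by 0.78 (SE 0.11, limma, adjusted p = 0.00615).

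Secreted liver proteins other than apolipoproteins had 8 of 42 genes higher and 7 lower in hepatocytes (median -0.10) and 11 higher and 15 lower in whole liver (median 0.10). Of all genes 12.1% were higher and 6.61% lower in hepatocytes, and 38% and 7.53% in whole liver, where size factors moved the share of higher calls from 83.5% to 52.2%. The acute-phase gene Orm1 was at 0.81, 0.33 and 0.70 FPKM in WT and at 394, 291 and 711 FPKM in Cdk1 Liv-/- hepatocytes, a log2 difference of 8.63 (SE 0.35, limma, adjusted p = 0.000409). Serpina1d, of the alpha-1-antitrypsin family, fell by 1.09 in whole liver (SE 0.09, limma, adjusted p = 0.0015).

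**Figure D5:**
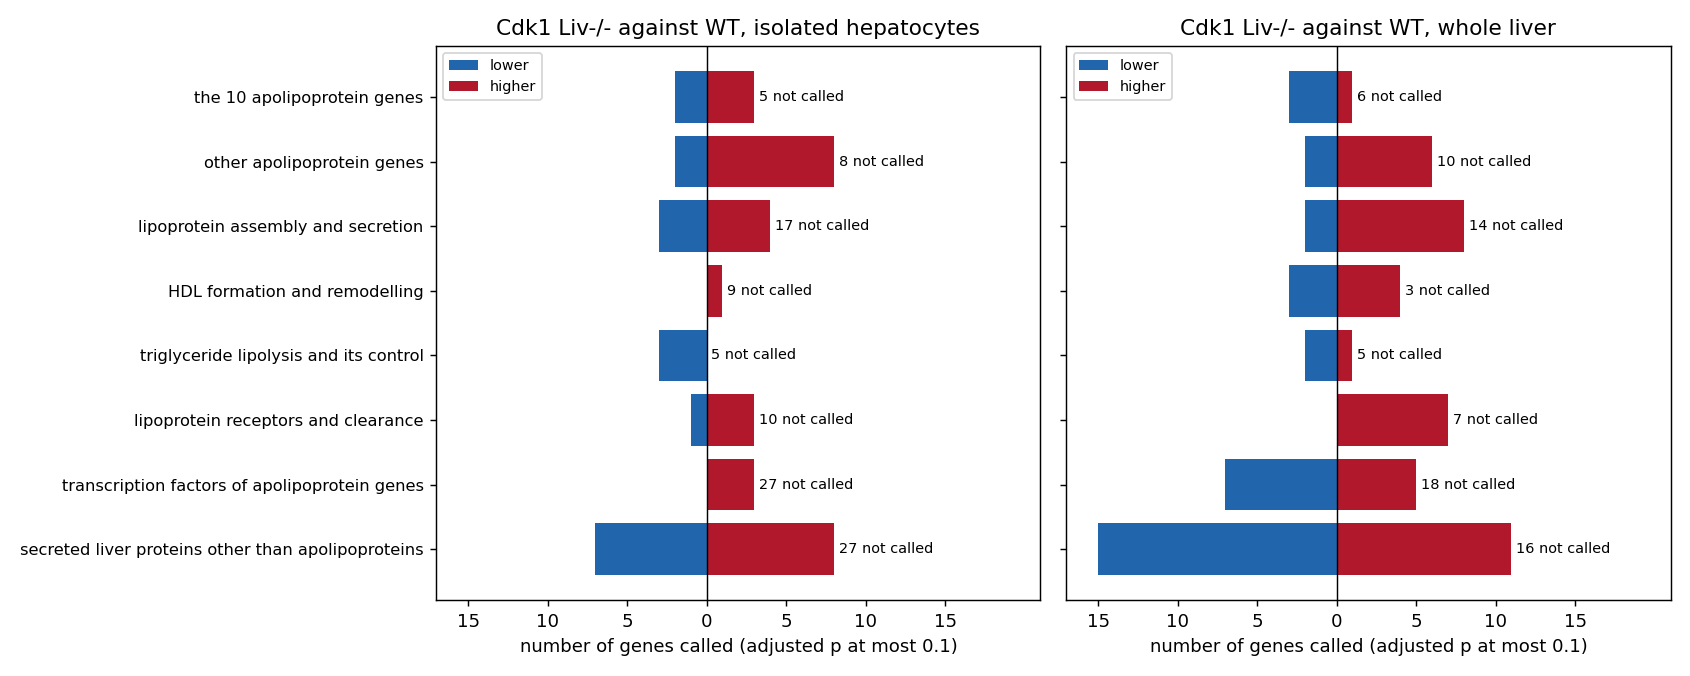
Number of genes called lower (blue, left of 0) and higher (red, right of 0) in Cdk1 Liv-/- against WT at a limma adjusted p of at most 0.1, for the 10 apolipoprotein genes and 7 other lists, in isolated hepatocytes (left panel) and whole liver (right panel), with the number not called beside each bar. Among all genes tested 12.1% were higher and 6.61% lower in hepatocytes, and 38% and 7.53% in whole liver, where size factors moved the share of higher calls from 83.5% to 52.2%.

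Markers of the cell types of liver moved with genotype as well, in counts that stand beside 12.1% higher and 6.61% lower of all genes in hepatocytes and 38% and 7.53% in whole liver. All 12 hepatocyte markers were above 0 in all libraries. They summed to 80079, 86693 and 81843 FPKM in WT and 60030, 60663 and 56417 FPKM in Cdk1 Liv-/- hepatocytes, with Alb the most abundant. In whole liver they summed to 80597, 77869 and 81533 FPKM in WT and 63464, 56697 and 62585 FPKM in Cdk1 Liv-/-. The sums did not overlap, although 3 of the 12 rose and 1 fell in hepatocytes and 1 rose and 5 fell in whole liver. In hepatocytes the 12 sinusoidal endothelial markers (most abundant Fcgr2b) all fell, from 178, 123 and 328 FPKM in WT to 82.0, 51.8 and 57.7 FPKM in Cdk1 Liv-/-. In whole liver these were at 155, 188 and 217 FPKM in WT and at 193, 225 and 195 FPKM in Cdk1 Liv-/-, with 2 of 12 higher. None of these markers was at 0 in any library. The sums of WT hepatocyte replicates 1 and 2 also lay above those of all 3 Cdk1 Liv-/- libraries, and the calls were not repeated without WT replicate 3.

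The 12 Kupffer cell and macrophage markers (most abundant Cd5l) summed to 385, 209 and 705 FPKM in WT and 235, 175 and 153 FPKM in Cdk1 Liv-/- hepatocytes, with 1 of 12 lower. In whole liver they summed to 553, 609 and 615 FPKM in WT and 706, 965 and 736 FPKM in Cdk1 Liv-/-, with 5 of 12 higher. The 11 monocyte and neutrophil markers (most abundant Lyz2) summed to 52.4, 37.0 and 120 FPKM in WT and 49.8, 34.7 and 46.7 FPKM in Cdk1 Liv-/- hepatocytes, with 1 higher. In whole liver the sums were 117, 92.9 and 130 FPKM in WT and 191, 481 and 368 FPKM in Cdk1 Liv-/-, with 9 of 11 higher. The 14 stellate cell and fibroblast markers (most abundant Col3a1) summed to 277, 165 and 610.3 FPKM in WT and 162, 144 and 129 FPKM in Cdk1 Liv-/- hepatocytes, with 3 lower. In whole liver the sums were 613, 610.4 and 699 FPKM in WT and 1081, 1323 and 1035 FPKM in Cdk1 Liv-/-, with 7 higher and 1 lower.

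The 8 cholangiocyte markers (most abundant Spp1) summed to 29.2, 24.0 and 38.8 FPKM in WT and 74.0, 133 and 109.8 FPKM in Cdk1 Liv-/- hepatocytes, and to 71.1, 75.7 and 57.8 FPKM in WT and 287, 152 and 275 FPKM in Cdk1 Liv-/- whole liver. Of the 7 tested, 5 rose in each compartment. Of 9 erythroid markers none rose, 2 fell in hepatocytes and 3 in whole liver. In whole liver the erythroid markers summed to 1106, 1231 and 2172 FPKM in WT and 1166, 1769 and 1457 FPKM in Cdk1 Liv-/-. These sums overlapped, and 5 of the 9 markers had a log2 difference above 0 there. Of 8 B cell markers 3 fell in each compartment. Among 8 T and NK cell markers 2 fell in hepatocytes and 1 in whole liver. The whole liver sums of both these types overlapped between genotypes as well. The most abundant erythroid, B cell and T and NK cell markers were Hbb-bs, Ighm and Gzma. The genotype difference was lower in hepatocytes than in whole liver (interaction, limma) for 10 of 12 sinusoidal endothelial, 4 of 12 Kupffer cell, 4 of 11 monocyte and neutrophil and 6 of 14 stellate markers, beside 9.85% of all genes called in either direction, and these counts were not repeated without the libraries that stood apart. The part of these cell types in the apolipoprotein differences was not tested.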

How the data were processed

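The values were FPKM per gene in 12 polyA RNA libraries, 3 for each genotype in isolated hepatocytes and in whole liver, at postnatal day 14. Per the deposited processing notes, the authors aligned reads to mm10 with STAR and computed these FPKM with RSEM 1.2.31, without scaling between libraries. Log2(FPKM + 0.5) was compared with limma 3.58.1 (R 4.3.3, eBayes with a trend) for the 17386 genes with a mean of at least 0.1 FPKM, two-sided, with Benjamini-Hochberg adjustment over all of them. Calls needed an adjusted p no higher than 0.1. The genotypes were compared in each compartment and the compartments in each genotype, and the interaction was fitted over all 12 libraries. The steps were tested on simulated data.

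Depth was estimated from the spacing of low FPKM values, at 34.7 to 49.8 reads per FPKM and kilobase, which leaves counting error small for all 10 genes. Alternatives were pseudocounts of 0.1 and 1, no filter, a mean of at least 1 FPKM, median-ratio size factors, an equal sum in every library, the replicate number as a block, a two-sample test with q-values, an added log2 difference of 1, and each library left out in turn. After the data were seen, 2 more were added, an equal sum without the 20 most abundant genes, and the interaction without WT hepatocyte replicate 3 and Cdk1 Liv-/- whole liver replicate 3.

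Named genes were the 10 apolipoproteins, Cdk1, Xist and 4 Y-linked genes, genes from both ends of each list (2 largest and 2 smallest differences), mostly those whose calls held without any 1 library, the most abundant marker of each cell type, overlapping genes, and the gene closest in pattern to each apolipoprotein. Alb is given as the most abundant hepatocyte marker. The lists covered other apolipoprotein genes, lipoprotein assembly and secretion, HDL formation and remodelling, triglyceride lipolysis, lipoprotein receptors and clearance, transcription factors, neighbours of both clusters and other secreted liver proteins, with markers of 10 cell types. The result of 1 listed gene is not reported here. The apolipoproteins and lists were chosen with earlier results of these data known. Positions came from GENCODE M21 and upstream sequences from RefSeq, both on GRCm38, the build called mm10. Summed FPKM and ratios were described without a test.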

Additional observations from a re-analysis of the deposited data

Results flagged for a closer look

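The genotype difference differed between hepatocytes and whole liver, as tested by the interaction (limma, adjusted p of at most 0.1), for the following genes among the 10 apolipoproteins and the 2 genes at each end of each list, given as the hepatocyte minus the whole liver log2 difference. Of the apolipoproteins these were Apoc2 (-0.42) and Apoc3 (0.75). Of the genes at the ends of the lists, the difference was higher in hepatocytes for Saa1 (1.80), Saa2 (2.01), Ces3a (2.24), Ces3b (1.42), Zpr1 (0.66), Serpina1d (0.61) and Orm1 (1.65). It was lower in hepatocytes for Plin2 (-0.61), Pltp (-1.75), Gpihbp1 (-2.04), Mylip (-1.70) and Relb (-1.05). Other listed genes also passed and are not named, among them 4 higher and 1 lower of 30 transcription factor genes. Of all genes 9.85% passed, and 23.9% of these were higher in hepatocytes, or 52.6% with size factors. With WT hepatocyte replicate 3 and Cdk1 Liv-/- whole liver replicate 3 both left out, Saa2 (1.94) and Zpr1 (0.65) stayed past the threshold and the others did not.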

How the results depend on the processing

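With 3 libraries in a group, most calls near the threshold moved with single libraries. Calls of Apoc3 in hepatocytes and of Apoc2 and Apoh in whole liver held under every alternative of scaling, filter, test and library. Depth does not limit the 10 genes, and it does limit listed genes near the filter, such as Lipg. Where a result moved, the cause was not tested.

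Of the 10 genes, 5 were called in hepatocytes, against 2 without the filter, 3 with size factors and 2 with an added log2 difference of 1. The two-sample test called 4, without Apoa4, and 3 to 5 were called with a library left out. Of all genes 3257 were called in hepatocytes, against 1207 without the filter, 3123 with size factors and 1107 with the added log2 difference. The two-sample test called 4555, and 1559 to 2498 were called with a library left out. In whole liver 4 were called, against 2 without the filter, 7 at a mean of at least 1 FPKM and 6 with size factors. The two-sample test called 10, the added log2 difference left 0, and 3 to 4 were called with a library left out. Of all genes 7920 were called in whole liver, against 5015 without the filter, 6710 at a mean of at least 1 FPKM and 5951 with size factors. The two-sample test called 11389, the added log2 difference left 972, and 5368 to 7486 were called with a library left out. In the interaction 2 were called, against 0 without the filter, 1 with size factors and 0 with the added log2 difference. The two-sample test called 3, with Apoa1 added. With both libraries that stood apart left out 0 were called, and 0 to 3 with a library left out. Of all genes 1712 were called in the interaction, against 301 without the filter, 1039 with size factors and 688 with the added log2 difference. The two-sample test called 2778, with both libraries left out 452 were called, and 78 to 2639 with a library left out. Between WT compartments 0 were called, and 0 to 1 with a library left out, beside 265 of all genes, and 1 to 3069 with a library left out. Between Cdk1 Liv-/- compartments 4 were called, against 1 without the filter, 3 with size factors and 0 with the added log2 difference. There were 5, with Apob added, at a mean of at least 1 FPKM, with the two-sample test and without the 20 most abundant genes. With a library left out there were 0 to 4. Of all genes 7774 were called there, against 5416 without the filter, 7214 with size factors and 1906 with the added log2 difference. The other settings, in the same order, called 5820, 10515 and 6785, and 5715 to 7603 with a library left out. The summed FPKM differed by -10178 in whole liver and by -15318 with size factors. With a library left out it differed by -11177 to -6243.8 in hepatocytes and by -11270 to -8666.8 in whole liver.

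With the replicate number as a block, 1 apolipoprotein gene was called in hepatocytes, 2 in whole liver and 1 in the interaction. Between Cdk1 Liv-/- compartments 3 were called. The calls among all genes fell as well, to 1456 from 3257 in hepatocytes and to 6609 from 7920 in whole liver. They fell to 656 from 1712 in the interaction and to 6239 from 7774 between Cdk1 Liv-/- compartments. Libraries of the same number did not go together. Correlations between them after removal of group means were -0.317 to 0.239, and the same number was closest in 9 of 36 pairs of a library and another group, and in every other group for 0 libraries. The block is thus only a number, and its calls are not read as weaker effects.

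Some signs turned. With size factors these were Clptm1 in hepatocytes (-0.0666), Apoa5 (-0.125), Apob (-0.132), Lmf1 (-0.0811), Lrpap1 (-0.208) and Tomm40 (-0.165) in whole liver, Apoh in the interaction (0.142) and Apoa2 between Cdk1 Liv-/- compartments (0.169). With an equal sum in every library these were Apoc1 in hepatocytes (0.000723) and Bace1 in whole liver (0.0207). Without the 20 most abundant genes in the sum these were Clptm1 in hepatocytes (-0.0598), Apoa5 (-0.00113), Apob (-0.00802), Lrpap1 (-0.0863) and Tomm40 (-0.0429) in whole liver, Apoh in the interaction (0.0242) and Apoa2 between Cdk1 Liv-/- compartments (0.00873). With both libraries that stood apart left out, the Apoh interaction was 0.0348.

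With a library left out, hepatocyte differences ran from -0.13 to 0.0752 for Apoc1, -0.115 to 0.161 for Bace1 and -0.0508 to 0.107 for Clptm1. In whole liver they ran from -0.121 to 0.0139 for Ndst1, -0.0243 to 0.0492 for Lrpap1 and -0.063 to 0.0189 for Bace1. In the interaction they ran from -0.02 to 0.12 for Apob, -0.0639 to 0.144 for Apoe, -0.0924 to 0.0939 for Apoh, -0.0978 to 0.334 for Apoa2 and -1.01 to 0.281 for Apoa4. Between WT compartments the ranges were -0.0184 to 0.07 for Apoe, -0.173 to 0.635 for Apoa4 and -0.00949 to 0.0316 for Apoh. Between Cdk1 Liv-/- compartments they were -0.0128 to 0.193 for Apoc1, -0.0267 to 0.182 for Apoe, -0.08 to 0.106 for Apoh, -0.3 to 0.133 for Apoa2 and -0.834 to 0.462 for Apoa4.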
